A study of Homo sapiens with 6 samples.

Results

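TCONS_00029322, TCONS_00029323, TCONS_00029324, ENST00000423278 and ENST00000456129 are 5 of the 23042 long non-coding RNA (lncRNA) transcripts with a custom probe on the array, and only an accession names them in the files. They were chosen by their values in the same contrast described here: they are the accession-only lncRNA transcripts with the largest called decrease after silencing of the ETV6/RUNX1 fusion. Their decrease is therefore given as a description, with no test. The 6 arrays were hybridized with total RNA of REH cells, a leukemia line of human B-cell precursors that carries the ETV6/RUNX1 fusion and has lost its other ETV6 allele. In the control group (3 arrays), cells received a non-targeting short hairpin RNA (shRNA), and in the knockdown group (3 arrays) an shRNA against the fusion, which the study's methods place in its ETV6 part. Per those methods both shRNAs were bought as ETV6 constructs, the control being one that did not hit the fusion, and both were delivered by lentivirus with sorting of GFP-positive cells. All arrays come from 1 cell line and, as far as the sources used here say, 1 shRNA per group, so other effects of either shRNA cannot be told apart from silencing of the fusion. The study names the replicates biological triplicates.

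ETV6/RUNX1 joins the amino-terminal part of ETV6, a transcriptional repressor of the ETS family, to most of RUNX1, a DNA-binding regulator of blood cell development, and it is generally described as a repressor of RUNX1 targets in B-cell precursors. LncRNAs are transcripts without a known protein product, and many of them act in the nucleus on transcription or on chromatin. An accession starting with ENST is an Ensembl transcript, whereas one starting with TCONS comes from a transcript assembly made from RNA sequencing reads, in which neighbouring numbers often belong to neighbouring or overlapping transcripts. No role of the 5 transcripts is given in the sources used here, and neither the genome position nor the probe sequence of any of them is in the files analysed.

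Every probe of the 5 transcripts was first listed. Each transcript was represented by 1 custom probe with 1 spot per array, and 0 catalogue probes carried one of these accessions. The 5 spots lay in different rows of the array, numbered 42, 137, 148, 267 and 287. On all 6 arrays the scanner software flagged each spot as well above background, and none was saturated or flagged as an outlier. Raw median intensity ran from 363 to 543 in control and from 101 to 151.5 in knockdown, against a local background of 28 to 39 and a median of 42.3 to 48.0 over the negative control spots of an array. The knockdown values were low, but lay above the 0.95 quantile of the negative controls, 49 to 67.8 in raw intensity.

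Values below are on a log2 scale after variance-stabilizing normalization (VSN), and n = 3 arrays per group throughout. TCONS_00029322 measured 8.90, 8.80 and 8.36 on control replicates 1, 2 and 3, and 6.69, 6.63 and 6.81 on knockdown replicates 1, 2 and 3. No knockdown array reached the lowest control array, with control replicate 3 the lowest of its group. The mean fell from 8.69 ± 0.29 (SD) to 6.71 ± 0.09, a log2 difference of -1.98 (SE 0.15) or a 3.94-fold lower value.

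For TCONS_00029323, the 3 control arrays gave 9.119, 9.005 and 8.424, and the 3 knockdown arrays 6.894, 6.723 and 7.095. Groups again did not overlap, and this probe had the largest spread within both groups. Its mean was 8.85 ± 0.37 in control and 6.90 ± 0.19 in knockdown, a difference of -1.95 (SE 0.19). Between arrays of the same replicate number the difference was -2.23, -2.28 and -1.33.

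The third probe of this accession run, for TCONS_00029324, measured 8.83, 8.74 and 8.46 in control and 6.80, 6.60 and 6.50 in knockdown. Control replicate 3 was the lowest control here too, but knockdown replicate 3 was the lowest knockdown array, unlike at the other 4 probes. Mean values were 8.68 ± 0.19 and 6.64 ± 0.15, a difference of -2.04 (SE 0.13).

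ENST00000423278 had control values of 9.01, 8.86 and 8.50 and knockdown values of 6.64, 6.66 and 6.86. Its decrease, from 8.79 ± 0.26 to 6.72 ± 0.12, was the largest of the 5 at -2.07 (SE 0.15). This corresponds to 23.9% of the control value. ENST00000456129 measured 8.81, 8.82 and 8.35 in control and 6.76, 6.45 and 6.76 in knockdown. The groups were again separate, with means of 8.66 ± 0.27 and 6.65 ± 0.18 and a difference of -2.005 (SE 0.159).

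**Figure D1:**
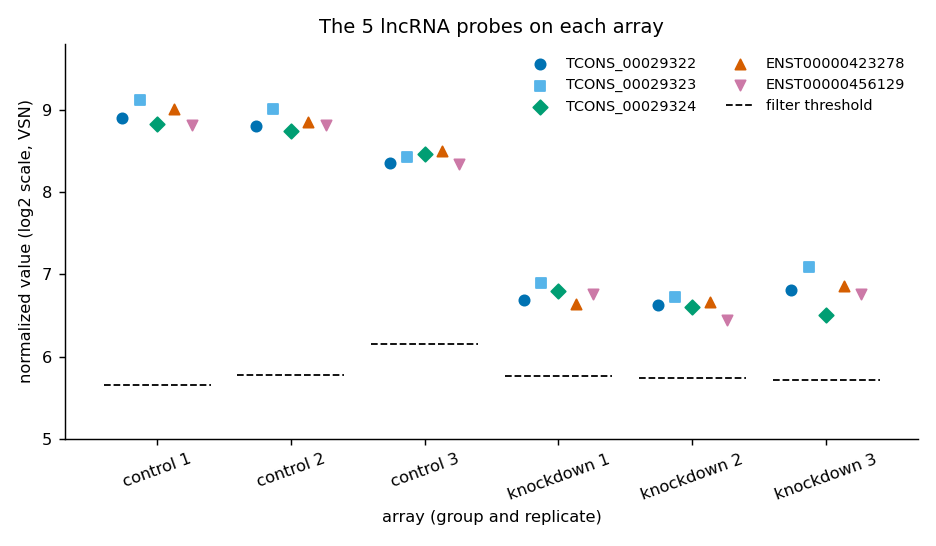
Normalized value (log2 scale) of the 5 lncRNA probes on each of the 6 arrays. Each symbol is 1 probe on 1 array, and the dashed lines mark the value that a probe had to pass on that array to count as measured. Control values lie between 8.347 and 9.119 and knockdown values between 6.448 and 7.095, with control replicate 3 the lowest control array for every probe.

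The 5 decreases thus ran from 3.85-fold to 4.19-fold, leaving 23.86% to 25.97% of the control value. They spanned 0.12 on the log2 scale, a span that the selection of the largest decreases itself narrows. Over all 27490 probes retained after the filter on dim probes, 352 were lower in knockdown by limma with a Benjamini-Hochberg adjusted p under 0.05 (1.28%), and among the 5892 retained lncRNA probes 98 were (1.66%). Calls in either direction made up 1.74% (478 probes, or 1038 with the replicate number as a block). Control arrays all above knockdown arrays were found for 9.89% of the retained probes. As the 5 probes were selected on this contrast, their own count is not read against these shares. In bulk RNA, fewer cells with a transcript and less of it per cell cannot be told apart.

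The size of the decrease varied with the arrays used. Control replicate 3 had the lowest share of probes well above background (47.6%, against 50.3% to 52.5% on the other 5 arrays) and the highest filter threshold (6.15, against 5.66 to 5.78). At replicate number 3 the difference ran from -1.33 at TCONS_00029323 to -1.96 at TCONS_00029324, whereas it ran from -2.02 to -2.37 at numbers 1 and 2. Control replicates 1 and 2 lay in the other row of the slide from the remaining 4 arrays. With slide row as a term of the fit, which leaves control replicate 3 as the only control beside the knockdown arrays, the median difference of the 5 probes was -1.69. Without control replicate 3 it was -2.16. The part of slide row or of this array in the values was not tested.

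Knockdown values of the 5 probes lay 0.71 to 1.38 above the filter threshold of their array, where VSN compresses differences. On the log2 scale of the scanner software's processed signal, from which background had been subtracted, the differences were larger, from -2.37 at TCONS_00029323 to -2.60 at TCONS_00029324. Both scales gave the smallest decrease at TCONS_00029323.

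Next, it was examined whether the probes moved together also within a group, a comparison which leaves out the contrast that chose them. From each value the mean of its group was subtracted, and the deviations of the probes were compared array by array. Control replicate 1 was above the control mean for 5 of 5 probes (mean deviation 0.20), control replicate 2 likewise for 5 of 5 (0.11), and control replicate 3 for 0 of 5 (-0.31). The 3 control arrays were thus ordered nearly alike by every probe. In knockdown, replicate 2 was below the group mean for all 5 probes (-0.11), while replicate 1 was above it for 2 and replicate 3 for 4 of them.

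**Figure D2:**
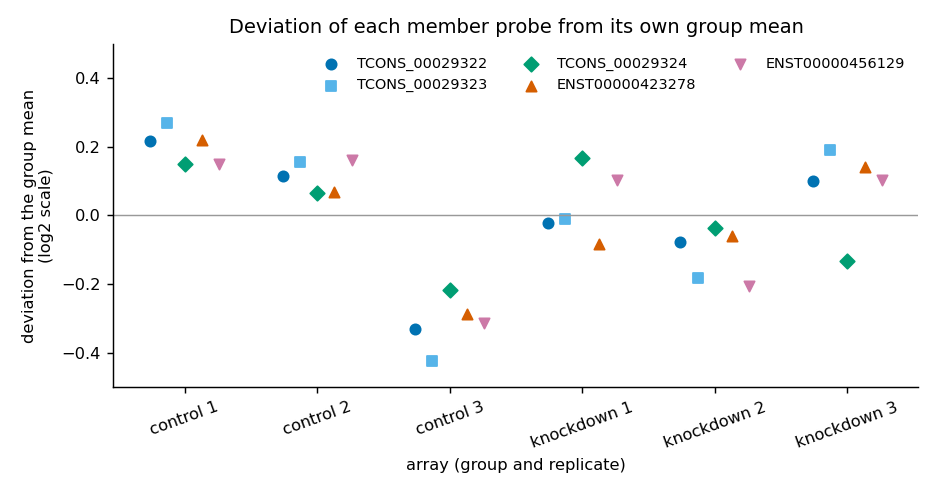
Deviation of each probe from the mean of its own group (log2 scale) on each array, with 1 symbol per probe. On control replicate 3 all 5 probes lie below 0, whereas in knockdown TCONS_00029324 is highest on replicate 1 and lowest on replicate 3, where TCONS_00029323 is highest.

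Over the 6 arrays, Pearson's r between the deviations of a pair ran from 0.49 to 0.98 in the 10 pairs, with a median of 0.86. These values rest on 6 arrays that all probes share, and are given as a description. The highest, 0.98, was that of TCONS_00029322 with TCONS_00029323, and the lowest that of TCONS_00029324 with ENST00000423278. In the 3 control arrays alone no pair was below 0.95, while in the 3 knockdown arrays r ran from -0.81 to 0.99, and the values below 0 all involved TCONS_00029324. An r over only 3 arrays is often extreme, and in control it rests largely on replicate 3, which was low for all 5 probes. For scale, the deviations of the 27420 other retained probes with complete values correlated with the mean of the 5 at a median of 0.06, with 0.05 and 0.95 quantiles of -0.78 and 0.78. Each of the 5 correlated with the mean of the other 4 at 0.63 to 0.98.

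How far the probes disagree within a group was then set beside measurement error, again without the contrast that chose them. Each probe was centred on its mean in each group, and the SD that remained between the probes on an array was taken. This within-group SD was 0.103 on the log2 scale for the 5 probes and 0.124 for the 3 TCONS probes. The array carries repeated spots of some catalogue probes, which measure one RNA with one oligonucleotide. For 101 such probes in the same range of values, with 5 to 14 spots each, the SD between spots ran from 0.049 to 0.203, with a median of 0.092. For 39 of them it was at or above that of the 5 lncRNA probes, and for 20 at or above that of the 3 TCONS probes.

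For the 44 lncRNA names with at least 3 retained probes in the study's list drawn from patient samples, the same within-group SD was taken. It ran from 0.037 to 0.693, with a median of 0.117, and was at or above that of the 5 probes for 26 of them and that of the 3 TCONS probes for 19. The log2 difference between groups spanned 0.09 over TCONS_00029322, TCONS_00029323 and TCONS_00029324 and 0.06 over the pair of ENST transcripts, spans that come from the contrast that chose the members and are set against no other.

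**Figure D3:**
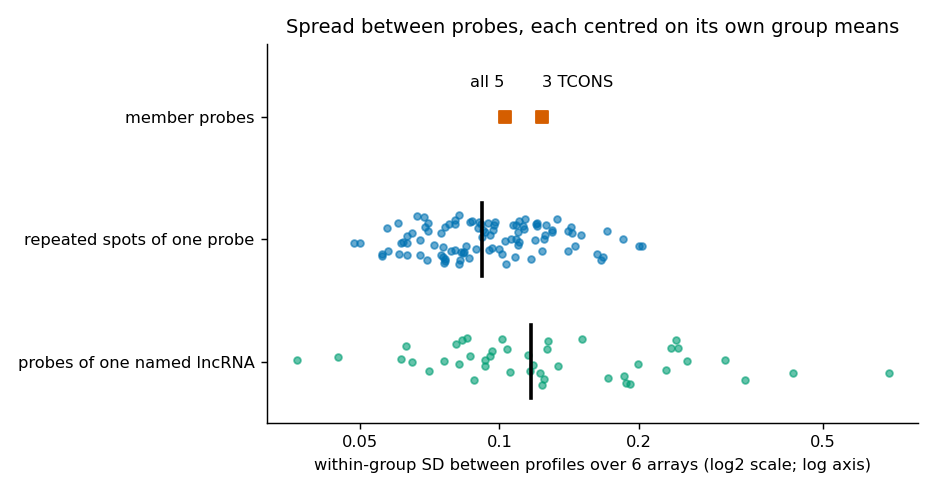
SD between probes on an array after each probe was centred on its mean in each group (6 arrays, log2 scale, log axis). Squares are the 5 members and the 3 TCONS members alone, and blue points are 101 catalogue probes with repeated spots. Green points are 44 lncRNA names of the study's list drawn from patient samples, and black bars are medians. The members lie at 0.103 and 0.124, within the range of repeated spots from 0.049 to 0.203.

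To ask whether the decrease reached other transcripts of the same accession run, the TCONS transcripts numbered within 25 of the 3 members were examined. Without genome positions it is not known which of these transcripts, if any, lie near the members. A total of 31 were on the array, of which 13 were retained and 18 were too dim. By limma, 0 of the 13 were called in either direction, beside 1.74% of all retained probes, and 1 had an unadjusted p under 0.05, beside 12.5% of all retained probes. With 13 transcripts neither count stands apart from these shares. Their median difference was 0.01, against 0.00 over all retained probes, and 5 of 13 had a lower mean in knockdown. Adjusted p ran from 0.141 to 0.995.

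Directly before the members, TCONS_00029320 was not retained, with means of 4.91 in control and 5.04 in knockdown. Directly after them, TCONS_00029325 measured 10.40, 10.25 and 10.23 in control and 10.57, 10.20 and 10.20 in knockdown. The groups of this next transcript overlapped, and the difference was 0.04 (SE 0.13, limma adjusted p = 0.941). For TCONS_00029327 it was 0.13 (SE 0.13, limma adjusted p = 0.723). Before the members, the nearest retained transcript was TCONS_00029315, over the threshold on 3 of 6 arrays, with a difference of -0.13 (SE 0.16, limma adjusted p = 0.797). At the dim TCONS_00029320 a decrease could not have been measured.

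Among the 13 retained neighbours the largest difference was that of TCONS_00029346, named lnc-RTN4R-1 in the study's list and also carrying ENST00000506039. It measured 11.63, 11.46 and 11.54 in control and 11.17, 11.04 and 11.25 in knockdown. The groups did not overlap, but its difference of -0.39 (SE 0.10) was not called (limma adjusted p = 0.141). Over 16 alternative settings its adjusted p ran from 0.076 with the replicate block to 0.661 with slide row as a term, and its difference from -0.44 to -0.20. Of the 18 neighbours that were not retained, 14 were over the threshold on no array and 4 on a single array, which was control replicate 3 for 3 of them and knockdown replicate 3 for the other.

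**Figure D4:**
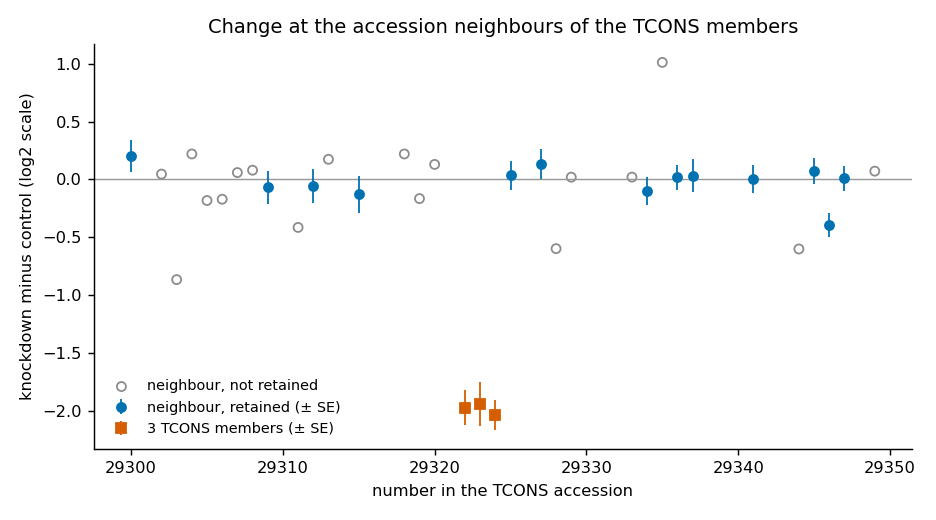
Knockdown minus control (log2 scale) by the number in the TCONS accession, which is not a genome position. Orange squares are the 3 members and blue points the 13 retained neighbours, each with its SE, and open circles are neighbours that were not retained, shown without error. The members lie between -1.95 and -2.04 and the retained neighbours between -0.39 and 0.20.

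Just outside the 5 members came ENST00000421151, also known here by accession only. It measured 8.93, 8.80 and 8.40 in control and 6.61, 6.82 and 6.90 in knockdown. The control arrays had the same order as at 4 of the 5 members, and the difference was -1.93, next to -1.95 at TCONS_00029323 just inside. The next were 3 probes of lnc-BMP2K-1, at -1.92 (ENST00000511895), -1.79 (ENST00000509088) and -1.71 (ENST00000437737), and TCONS_00007410 of lnc-FAM160A1-6 at -1.72. Their deviations correlated with the mean of the 5 members at 0.30 to 0.63, against 0.83 for ENST00000421151. Another probe of lnc-BMP2K-1, ENST00000507476, had 0.95, and is named below because it was picked for its likeness to the members.

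A further 3 lncRNA probes had a mean difference as low as that of a member without being called, and lay under the filter threshold on control replicate 3 and on all 3 knockdown arrays, so that no size is given for them. At ENST00000505527 control replicate 1 measured 10.09 and control replicates 2 and 3 only 6.39 and 5.06 (limma adjusted p = 0.471). The same array stood alone at TCONS_00002080, with 9.84 against 6.62 and 5.02, and at the probe shared by ENST00000416401 and TCONS_00000327, with 10.34 against 6.27 and 4.84. At the 5 members no control array stood apart in this way, their control SD being 0.19 to 0.37.

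Finally, the profile of the members over the 6 arrays was set beside that of all other retained probes. Of 27420 probes compared, 37 had an r over 0.99 with the mean of the members, whose own r with the mean of the other 4 was 0.989 to 0.999. The difference between groups, by which the members were chosen, is part of this r. As r also ignores the size of a change, these probes differ widely in it. PAFAH2, an enzyme that hydrolyzes platelet-activating factor, had the highest r but a difference of only -0.19, and SNAPC5, a subunit of the complex that activates small nuclear RNA genes, had -0.26.

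The lncRNA gene MIAT came next in likeness, with an r of 0.999 over the 6 arrays and of 0.97 over the deviations, for which all 10 probes most alike had 0.85 or more. Its catalogue probe, designed on NR_003491, measured 9.36, 9.17 and 8.83 in control and 7.08, 6.86 and 7.15 in knockdown. All 3 control arrays lay above the knockdown arrays, in the same order as at 4 of the 5 members, and the mean fell from 9.12 ± 0.27 to 7.03 ± 0.15. The difference of -2.09 (SE 0.15) lay within 1 SE of that of every member. It is given without a test, since the probe was picked for its likeness to the members, and whether any of the 5 accessions belongs to this gene was not analysed here.

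Of the other probes most alike, ENST00000507476 of lnc-BMP2K-1 had a difference of -1.52 and the unnamed transcript ENST00000481132 one of -2.33. The remaining 5 belong to protein-coding genes. TFPI, an inhibitor of the tissue factor pathway of coagulation, had -2.29, and the membrane protein EMP2 had -0.56. GIMAP8, a GTPase of a family found mainly in lymphocytes, had 0 of 3 knockdown arrays well above background. Its mean fell from 6.98 to a measured 5.24, and set against the lowest value well above background it was at least 2.99-fold lower. The same held for XIRP2, an actin-binding protein, which was at least 1.78-fold lower and was well above background on 2 of 3 control arrays. The cell adhesion protein AMIGO2 measured 6.61 in control and 5.63 in knockdown, where 1 of 3 arrays was well above background and 0 of 3 over the filter threshold, so no size is given for its difference.

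The targeted gene was checked in the same arrays. The retained ETV6 probe measured 7.92, 8.05 and 8.37 in control and 7.50, 7.46 and 7.29 in knockdown. Its groups did not overlap, with a difference of -0.70 (SE 0.14, limma adjusted p = 0.051), which is not past the threshold, and where this probe lies relative to the fusion was not analysed here. Between its within-group deviations and the mean deviation of the members r was -0.93 over the 6 arrays: in control ETV6 was highest on replicate 3, where all 5 members were lowest, and in knockdown it was lowest on replicate 3, where 4 of the 5 members were above their mean. Of the markers of B-cell precursors, 9 of 10 genes were retained (VPREB1 was not), as were 3 of 3 T-cell, 1 of 3 monocyte or granulocyte and 1 of 2 erythroid genes. Between any pair of arrays, r across probes was at least 0.986.

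All 5 probes were lower in knockdown in each of the 16 alternative settings tried, with single differences from -2.56 to -1.52.

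**Figure D5:**
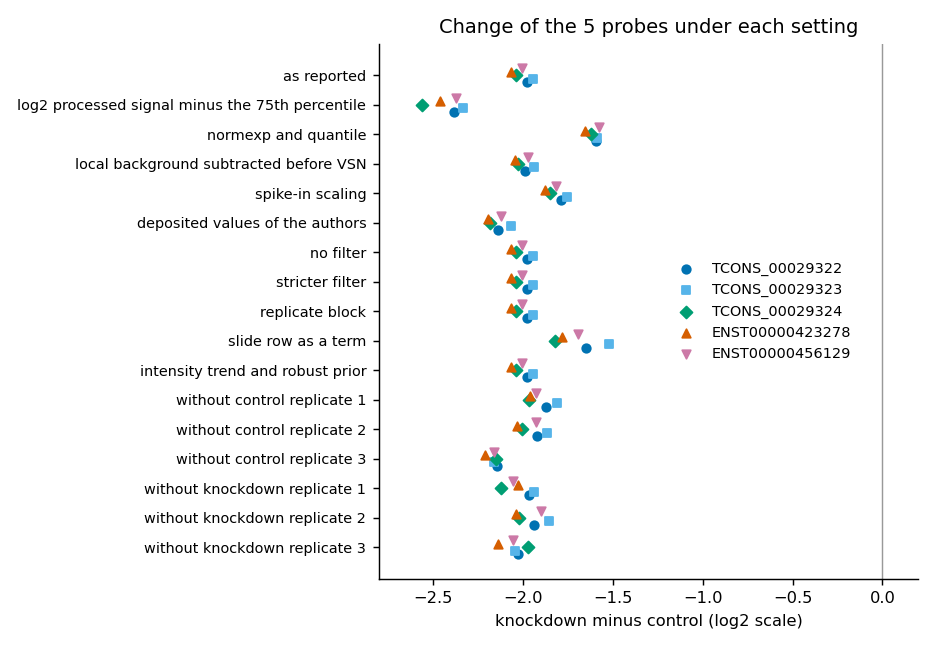
Knockdown minus control (log2 scale) of the 5 probes as reported and under 16 alternative settings. Each symbol is 1 probe under 1 setting. All values lie below 0, the lowest with the processed signal (-2.56 at TCONS_00029324) and the highest with slide row as a term (-1.52 at TCONS_00029323).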

How the data were processed

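RNA was hybridized to 1-color (Cy3) arrays, per the labels. Spot values were extracted by the authors (Agilent Feature Extraction 10.7.1.1). Deposited for each array were raw median intensity, local background intensity, processed intensity and other values (flags), not normalized between arrays, of 62976 spots. A deposited table of the authors holds normalized log2 values of 27869 probes, all 5 members among them. It was used as an alternative, and its columns correlated with the values computed here at r of 0.999 to 1.000.

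The VSN model was written anew, fitted with the 0.9 quantile of least squares kept, and run on raw median intensity. A probe was retained if it passed 1.1 times the 0.95 quantile of the normalized values of the 308 negative control spots on 2 of 3 arrays of a group. Knockdown was compared with control in limma 3.58.1 under R 4.3.3 (two-sided, no block, Benjamini-Hochberg over 27490 probes). The self-test on simulated data was run before use. The array design is named on hg19, and catalogue accessions were given symbols from a RefSeq gene table of a later build.

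The members, lists and tests were chosen with earlier results of these data known. Named were all members, the neighbours by accession, the 5 lncRNAs with the next largest called decrease, the 10 probes most correlated with the members and ETV6. The 3 uncalled lncRNA probes with a mean decrease as large as that of a member were named, and the within-group SD between probes was chosen, after their values were seen. Bounds for probes not well above background use, per array, the lowest value among probes well above it.

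Replicate numbers come from the labels. Deviations of same-numbered arrays correlated at 0.43, 0.29 and 0.20 across probes, so the numbers may pair the arrays. The p-values as reported ignore such a pairing, since the study's methods name no block. With the replicate number as a block, run as an alternative, 1038 probes were called, against 478. As all arrays come from 1 cell line, p-values measure the spread between these cultures only, and 6 arrays limit the precision.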

Additional observations from a re-analysis of the deposited data

How the results depend on the processing

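The median log2 difference of the 5 members was -2.005 as reported. It was -2.38 with the processed signal scaled to its 75th percentile, -1.59 with normexp and quantile normalization, -1.81 with spike-in scaling and -1.69 with slide row as a term, and it ran from -2.16 to -1.92 with 1 array left out. The span over the 5 members, 0.12 as reported, was 0.23 with the processed signal and 0.30 with slide row, and 0.07 to 0.18 with 1 array left out. Every member was lower in all 16 alternatives, which is a description, as they were selected on this contrast. No neighbour was called in any of them, of 13 tested in 14 alternatives, 31 without the filter and 11 with the stricter filter.

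Over all probes, 478 were called. Without the filter on dim probes 224 were, with slide row as a term 227, and 191 (without control replicate 2) to 553 (without knockdown replicate 1) with 1 array left out. Without control replicates 1 and 3 the counts were 282 and 258, and without knockdown replicates 2 and 3 they were 214 and 205. The replicate block called 1038 probes, 666 lower and 372 higher, none of them a neighbour. Spike-in scaling moved the median of all probes to 0.19 and gave 200 lower and 258 higher calls, against 352 and 126 as reported. Slide row as a term left 207 lower and 20 higher calls. The cause of these differences was not tested. A mean over several probes per transcript was not run, since each member has 1 probe.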
